A study of Mus musculus with 22 samples.

Results

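Collagen chain genes were followed through bulk RNA-seq of mouse pluripotent stem cells and of the cultures in which primed cells were reverted to naive-like cells with activators of AMP-activated protein kinase (AMPK). The members were every gene whose symbol is Col, a number, a and a number, which gave 45 rows and 44 symbols among the 34489 genes of the count table. Col4a6 stood under 2 Ensembl identifiers (ENSMUSG00000031273 and ENSMUSG00000116510) and its reads were divided between them, so each of its rows understates the gene. By class, 11 rows encode fibrillar chains, 9 basement membrane chains (types IV, XV and XVIII), 6 beaded filament chains (type VI), 9 FACIT chains (fibril-associated collagens with interrupted triple helices), 4 transmembrane chains, 3 short-chain network chains and 3 anchoring or other chains.

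The 22 libraries are 1 of naive mouse embryonic stem cells (Rex1-GFP mESCs, 129/Ola), 2 of primed epiblast stem cells (mEpiSCs), 8 of whole reversion cultures and 11 of reverted cells. The primed libraries are Oct4GIP, a line with an Oct4-driven eGFP and puromycin resistance transgene that was kept on fibronectin, and 129/MSM, a line from a cross of MSM/Ms with 129X1/SvJ mice that was kept on mitomycin-treated mouse embryonic fibroblast (MEF) feeders, both in FGF2 and Activin A. Oct4GIP cells were then cultured on MEF feeders and sampled on day 8 (d8) and day 16 (d16) in Basal medium, Basal medium with 2iL (LIF together with inhibitors of the kinases MEK and GSK3), with AICAR (an AMPK activator), or with AICAR and LIF, 1 library each. After d16, cells were passaged on gelatin in 2iL and sampled at 2 and 3 passages (4 libraries of Oct4GIP after AICAR or AICAR+LIF) and at 10 passages (5 of Oct4GIP after AICAR, AICAR+LIF, A769662, A769662+LIF or metformin+LIF, where A769662 and metformin also activate AMPK, and 2 of 129/MSM after AICAR or AICAR+LIF). No condition has a replicate library, so the spread within a group includes treatments, passages and lines, and p-values measure that spread. The d8 and d16 libraries hold feeder RNA beside that of the mEpiSC-derived cells, and in such bulk samples fewer cells of a type and less RNA per cell cannot be told apart.

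Total counts were 438771 in AICAR+LIF d8 and 956357 in AICAR d8, and 1689495 to 5290163 in the other 20 libraries. Levels are given as CPM (counts per 1000000 counts of the library, scaled by TMM factors), on which 3 counts, taken as the floor, were worth 0.565 CPM in the deepest library and 5.93 CPM in AICAR+LIF d8. The summed level of 6 pluripotent cell markers was 3460 to 5230 CPM in naive and reverted cells, 1136 and 593 CPM in primed Oct4GIP and primed 129/MSM, and 137 to 330 CPM in the cultures. The summed level of 14 fibroblast and feeder markers (such as Thy1, Postn, Dcn and Fbn1) was 24.7 to 44.4 CPM in naive and reverted cells and 635 to 3436 CPM at d8 and d16. Primed 129/MSM stood apart from primed Oct4GIP, with 588 against 89.7 CPM of these markers and 400 against 19.5 CPM of endoderm markers. Collagen results against primed cells are therefore given with and without that library where they rest on it. The pathway and marker lists were compared with primed cells only with it included.

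Collagens are trimers of chains wound into a triple helix. Fibrillar chains of types I, III and V form the cable-like fibrils that fibroblasts lay down in connective tissue, type II is the main collagen of cartilage, and types IV, XV and XVIII belong to basement membranes, the sheets on which epithelia rest. The early mouse epiblast sits on a basement membrane, and embryonic fibroblasts are rich sources of fibrillar collagen.

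Many basement membrane chains are encoded as head-to-head pairs. In GRCm38 (GENCODE M21), Col4a1 lies on the minus strand at chr8:11198423-11312826 and Col4a2 on the plus strand at chr8:11312805-11449287, so that the genes overlap by 22 bases at their starts. Col4a4 and Col4a3 start 71 bases apart on chromosome 1, and Col4a6 and Col4a5 start 1308 bases apart on the X chromosome. The start regions of Col4a1 (chr8:11312777-11313076, minus strand) and Col4a2 (chr8:11312555-11312854, plus strand) are shown first because the levels of both chains ran together over the libraries. They run from 250 bases before to 50 bases after the start, 5′ to 3′ on the gene's strand, from RefSeq on GRCm38.p6, with the 78 bases that the windows share in capitals.
Col4a1: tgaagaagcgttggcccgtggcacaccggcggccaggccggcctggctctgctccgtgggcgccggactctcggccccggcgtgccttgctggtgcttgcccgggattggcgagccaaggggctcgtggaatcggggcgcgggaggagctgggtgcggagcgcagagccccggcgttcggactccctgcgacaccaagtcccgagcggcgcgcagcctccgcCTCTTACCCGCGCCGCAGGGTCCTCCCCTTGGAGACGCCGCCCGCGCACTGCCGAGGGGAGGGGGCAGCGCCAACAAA
Col4a2: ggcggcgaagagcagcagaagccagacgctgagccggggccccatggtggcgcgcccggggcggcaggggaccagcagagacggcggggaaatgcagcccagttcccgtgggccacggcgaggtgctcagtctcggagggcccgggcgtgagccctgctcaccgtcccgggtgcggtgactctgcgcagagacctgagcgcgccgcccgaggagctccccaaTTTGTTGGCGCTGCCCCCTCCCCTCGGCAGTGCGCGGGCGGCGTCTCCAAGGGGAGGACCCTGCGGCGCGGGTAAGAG
For Col1a2 (chr6:4505368-4505667, plus strand), Col3a1 (chr1:45311288-45311587, plus strand) and Col18a1 (chr10:77166481-77166780 and, for a second start, chr10:77113656-77113955, both minus strand), capitals mark matches to CCAAT or GGGCGG on either strand. They are shown because Col1a2 and Col3a1 rose together in the cultures while Col18a1 did not move with them.
Col1a2: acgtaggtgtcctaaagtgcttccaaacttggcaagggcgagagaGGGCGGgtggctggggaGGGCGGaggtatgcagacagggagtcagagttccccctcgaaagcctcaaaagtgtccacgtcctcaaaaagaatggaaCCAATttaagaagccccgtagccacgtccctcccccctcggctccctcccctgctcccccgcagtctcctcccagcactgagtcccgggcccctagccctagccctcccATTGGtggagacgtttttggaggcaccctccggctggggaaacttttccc
Col3a1: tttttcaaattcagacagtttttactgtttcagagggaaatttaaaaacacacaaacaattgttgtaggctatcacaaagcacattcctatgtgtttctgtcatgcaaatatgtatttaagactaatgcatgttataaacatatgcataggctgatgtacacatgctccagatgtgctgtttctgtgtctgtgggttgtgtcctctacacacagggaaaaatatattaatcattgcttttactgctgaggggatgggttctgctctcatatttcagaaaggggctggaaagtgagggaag
Col18a1, upstream start: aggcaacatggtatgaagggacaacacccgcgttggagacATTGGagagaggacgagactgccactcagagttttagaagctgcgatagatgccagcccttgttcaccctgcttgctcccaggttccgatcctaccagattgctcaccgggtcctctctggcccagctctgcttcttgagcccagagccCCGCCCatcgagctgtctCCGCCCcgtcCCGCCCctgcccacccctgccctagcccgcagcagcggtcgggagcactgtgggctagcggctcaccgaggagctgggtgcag
Col18a1, downstream start: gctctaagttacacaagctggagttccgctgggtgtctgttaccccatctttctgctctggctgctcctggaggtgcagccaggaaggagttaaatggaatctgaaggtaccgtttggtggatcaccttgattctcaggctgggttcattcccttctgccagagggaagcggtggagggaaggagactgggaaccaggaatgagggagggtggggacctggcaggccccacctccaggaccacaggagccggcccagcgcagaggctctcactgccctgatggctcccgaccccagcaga
The Col1a2 window holds 4 matches and the Col3a1 window none of these letters. The upstream Col18a1 window also holds 4, and the downstream one holds none. RefSeq windows were found for 35 of the 44 symbols, 38 windows in all. CCAAT stood in 13 of the 38 (34.2%) against 37.4% of all 32851 windows, and GGGCGG in 23 of the 38 (60.5%) against 35.7%, where the Col4a1 and Col4a2 windows share bases and are counted each. A match to so short a motif is a description of the letters and not a binding site.

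Naive, primed and reverted cells had little collagen mRNA. More of its reads came from basement membrane chains, Col18a1 included, than from fibrillar chains. All members together took 0.0129% of counts in naive cells, 0.0352% in primed Oct4GIP, 0.228% in primed 129/MSM and 0.0102 to 0.0569% in the 11 reverted libraries. In the cultures they took 0.528 to 0.691% at d8. At d16 the shares were 0.882% in Basal medium, 2.30% in AICAR, 2.45% in AICAR+LIF and 5.34% in 2iL. The lowest culture thus stood above every stem cell library, and the 4 libraries at d16 did not overlap with those at d8.

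The summed level of fibrillar chains was 41.6 CPM in naive cells, 59.9 CPM in primed Oct4GIP, 707 CPM in primed 129/MSM, 2937 to 3754 CPM at d8 and 5766 to 52185 CPM at d16. It was 123 and 132 CPM at 2 passages, 39.2 and 45.3 CPM at 3 passages and 25.6 to 63.3 CPM at 10 passages. Basement membrane chains summed to 59.6 CPM in naive cells, 181 and 833 CPM in primed Oct4GIP and 129/MSM, 402 to 1524 CPM at d8, 1143 to 1736 CPM at d16, 256 to 366 CPM at 2 or 3 passages and 55.5 to 263 CPM at 10 passages. Fibrillar chains thus spanned a wider range than basement membrane chains. The ratio of the fibrillar to the basement membrane sum was below 1 in all 14 naive, primed and reverted libraries (0.108 to 0.849) and above 1 in all 8 cultures, at 1.99 to 9.34 on d8 and 5.05 to 44.4 on d16. This order rests on Col18a1, which gave 45.0 of the 59.6 CPM in naive cells and 248 of the 833 CPM in primed 129/MSM. Without Col18a1 the fibrillar sum is the larger one in every naive, primed and reverted library but AICAR d16+3p. These sums and ratios are of reads and are not corrected for transcript length. The member that took the most counts was Col18a1 in 13 libraries, all of them naive, primed Oct4GIP or reverted, Col4a1 in primed 129/MSM, Col3a1 in 2iL d16 and Col1a1 in the other 7 cultures.

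**Figure D1:**
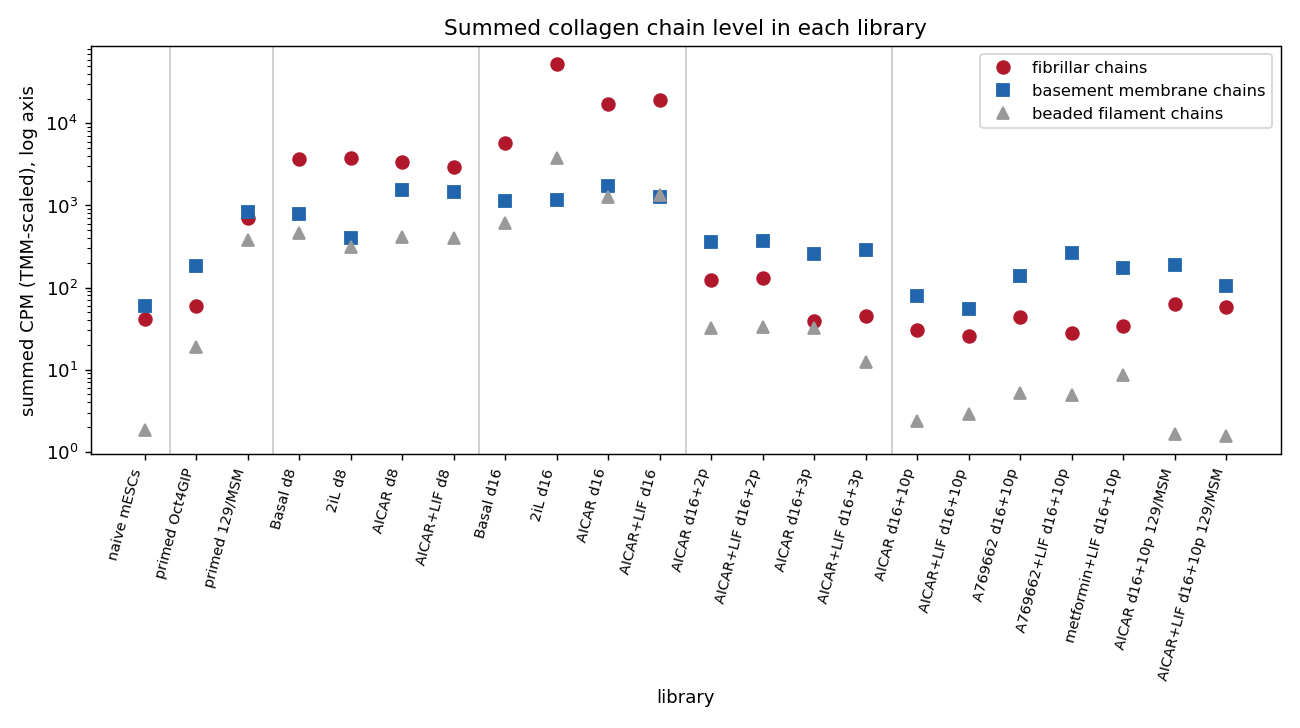
Summed level of fibrillar (circles), basement membrane (squares) and beaded filament (triangles) chains in each of the 22 libraries, in TMM-scaled CPM on a log axis, with grey lines between groups. Fibrillar chains sit above basement membrane chains in the 8 libraries of d8 and d16 and below them in the other 14. The basement membrane sums include Col18a1, without which the order in most of those 14 would turn.

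The type I chains are the main chains of fibroblast fibrils. Col1a1 (ENSMUSG00000001506, chr11:94936224-94953042, plus strand) was at 0.621 CPM in naive cells, 6.99 CPM in primed Oct4GIP and 142 CPM in primed 129/MSM. On d8 it was at 1458 CPM in Basal medium, 1380 CPM in 2iL, 1004 CPM in AICAR and 870 CPM in AICAR+LIF, and on d16 at 2335, 17011, 5472 and 6733 CPM in the same order. All 4 libraries of d16 were above all of d8, and 2iL d16 was above the others. At 2 passages Col1a1 was still at 36.1 CPM after AICAR and 44.8 CPM after AICAR+LIF, at 3 passages it was at 1.09 and 1.41 CPM, and at 10 passages it lay between 0.408 and 3.77 CPM, with a median of 1.95 CPM. Col1a2, its partner in the type I trimer, followed it, with 2.17 CPM in naive cells, 2.21 and 176 CPM in primed Oct4GIP and 129/MSM, 803 to 966 CPM at d8, 1589 to 14019 CPM at d16, 23.1 and 29.6 CPM at 2 passages and at most 3.57 CPM later. Per kilobase of transcript, Col1a1 was at 0.729 to 1.41 times the level of Col1a2 in the 11 libraries with at least 30 counts of both, with a median of 1.09. Primed 129/MSM had the lowest of these ratios.

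Col3a1, the type III chain of elastic tissues, was listed at 0 in naive cells and at 0.736 CPM in primed Oct4GIP, against 48.3 CPM in primed 129/MSM. It was at 357 CPM in Basal medium, 770 CPM in 2iL, 257 CPM in AICAR and 132 CPM in AICAR+LIF on d8, and at 1006, 17417, 5250 and 4643 CPM on d16. On both days the 2iL culture had the highest level, and at d16 it had 3130 CPM per kilobase against 2869 CPM per kilobase for Col1a1. The ratio of Col1a1 to Col3a1 per kilobase was 6.16 in AICAR+LIF d8 and 0.916 in 2iL d16, the extremes of 10 libraries. Col3a1 was at 12.4 and 10.6 CPM at 2 passages and at most 1.88 CPM at 10 passages, where 3 of the 7 libraries had no count.

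Col2a1, the chain of cartilage and of some embryonic epithelia, took another course at d16 than type I. It was at 1.86 CPM in naive cells, 4.05 CPM in primed Oct4GIP and 41.1 CPM in primed 129/MSM. On d8 it was at 287 CPM in Basal medium, 151 CPM in 2iL, 528 CPM in AICAR and 437 CPM in AICAR+LIF, and on d16 at 120, 22.1, 343 and 384 CPM. The 2iL d16 culture, which had the highest level of Col1a1 and Col3a1, thus had the lowest of Col2a1 among the cultures. The summed level of 5 cartilage markers was 50.2 to 133 CPM at d8 and 152 to 363 CPM at d16, highest in Basal d16, and its part in the level of Col2a1 was not tested. Reverted cells kept 11.3 to 17.6 CPM at 2 or 3 passages. At 10 passages the 5 libraries of Oct4GIP were at 1.19 to 3.77 CPM and the 2 of 129/MSM at 12.5 and 13.9 CPM.

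The type V and XI chains set fibril diameter. Col5a1 was at 14.9 CPM in naive cells, at 36.0 CPM in primed Oct4GIP and at 172 CPM in primed 129/MSM, and it lay at 265 to 393 CPM at d8 and 372 to 2076 CPM at d16. In reverted cells it was at 9.44 to 17.5 CPM at 2 or 3 passages and 10.1 to 36.8 CPM at 10 passages. Col5a2 ran from 0.368 CPM in primed Oct4GIP to 1351 CPM in 2iL d16. Col11a1 was at 14.0 CPM in naive cells, above 1.47 CPM in primed Oct4GIP and near 15.5 CPM in primed 129/MSM, and at 27.4 to 49.4 CPM at d8, 47.7 to 164 CPM at d16 and 4.73 CPM or less in reverted cells. Of the other fibrillar chains, Col27a1 was at 1.51 to 5.88 CPM in all stem cell libraries and at 48.8 to 86.6 CPM at d16, while Col5a3, Col11a2 and Col24a1 stayed at or under 40.1 CPM everywhere.

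Col4a1 and Col4a2 form the common type IV trimer of nearly all basement membranes. Col4a1 was at 7.14 CPM in naive cells, 27.6 CPM in primed Oct4GIP and 364 CPM in primed 129/MSM. On d8 it was at 257 CPM in Basal medium, 135 CPM in 2iL, 418 CPM in AICAR and 334 CPM in AICAR+LIF, and on d16 at 381, 330, 667 and 432 CPM. Days and the primed 129/MSM library overlapped, and the range over cultures was far narrower than that of type I. At 2 or 3 passages Col4a1 lay between 14.1 and 42.1 CPM, and at 10 passages between 1.95 and 11.02 CPM in Oct4GIP and at 25.3 and 18.8 CPM in 129/MSM. Col4a2 was at 6.21 CPM in naive cells, 11.03 and 171 CPM in primed cells, 130 to 342 CPM at d8, 243 to 525 CPM at d16, 4.22 to 19.2 CPM at 2 or 3 passages and 0.324 to 9.80 CPM at 10 passages. Across the 22 libraries, which differ in depth and share culture groups, the log2 levels of these divergently encoded chains had a Pearson r of 0.99. Per kilobase, Col4a1 was at 0.953 to 2.44 times Col4a2 in 13 libraries (median 1.32).

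The other type IV chains split. Col4a5, which with Col4a6 builds the type IV network around smooth muscle and in skin, was at 0 in naive cells, 11.8 and 33.2 CPM in primed Oct4GIP and 129/MSM, 48.1 to 109 CPM at d8, 150 to 208 CPM at d16 and 6.13 CPM or less in reverted cells. The Col4a6 rows were at 3.68 and 2.94 CPM in primed Oct4GIP, at 0 in primed 129/MSM, and at 26.0 to 40.1 CPM at d16. Col4a3 and Col4a4 are chains of the kidney glomerulus. Col4a3 had at most 2 counts in any library. Col4a4 had 2 counts or fewer outside the cultures, 0 to 6 at d8 and 3 to 32 at d16, where it reached 12.8 CPM in 2iL.

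Col15a1 and Col18a1 encode multiplexins, and the end of the type XVIII chain can be cleaved to endostatin. Col18a1 (ENSMUSG00000001435, chr10:77052178-77166548, minus strand) was at 45.0 CPM in naive cells and at 123 CPM in primed Oct4GIP and 248 CPM in primed 129/MSM. On d8 it was at 127 CPM in Basal medium, 70.1 CPM in 2iL, 644 CPM in AICAR and 684 CPM in AICAR+LIF, and on d16 at 208, 137, 288 and 237 CPM. Both AICAR cultures of d8 were thus above all other cultures. Reverted cells were at 313 and 315 CPM at 2 passages, 194 and 265 CPM at 3 passages and 52.6 to 249 CPM at 10 passages, with a median of 131 CPM. Col18a1 alone made up 39.8 to 77.5% of all collagen counts in reverted cells, 35.4% in naive cells and 0.225 to 11.4% in the cultures. Col15a1 was at 0.310 CPM in naive cells, 0.368 and 17.1 CPM in primed Oct4GIP and 129/MSM, 0.947 to 7.91 CPM at d8, and 21.7, 178, 18.1 and 3.39 CPM at d16 in Basal medium, 2iL, AICAR and AICAR+LIF. It was at 1.52 CPM or less in reverted cells.

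**Figure D2:**
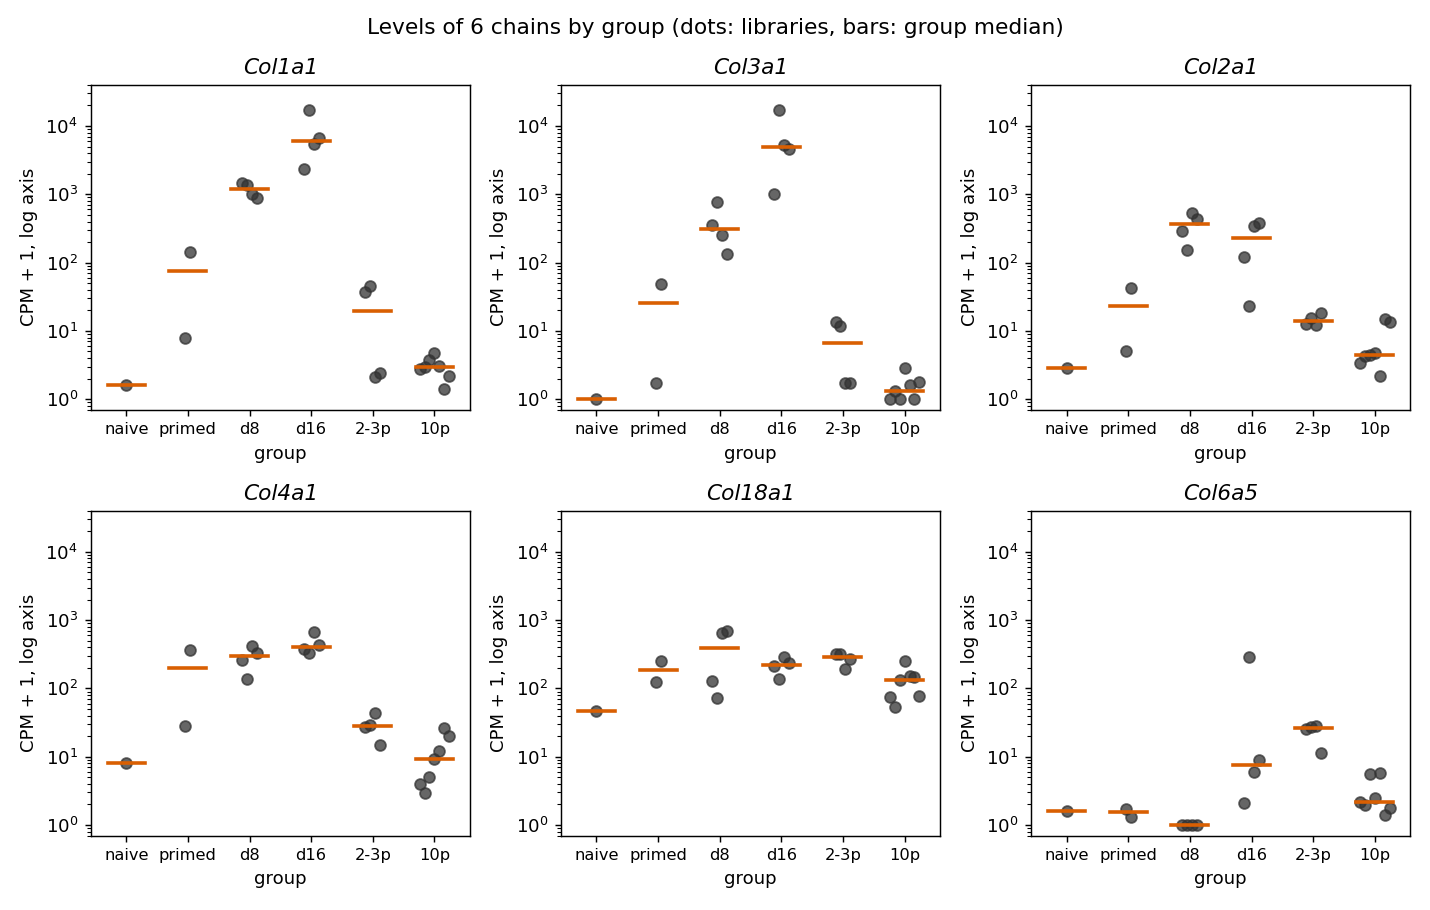
Level of Col1a1, Col3a1, Col2a1, Col4a1, Col18a1 and Col6a5 in the 6 groups, as CPM plus 1 on a common log axis, with a dot for each library and a bar at the group median. Col1a1 and Col3a1 span about 4 decades between the stem cells and d16, Col18a1 stays between 45.0 and 684 CPM, and Col6a5 is at 0 in all 4 libraries of d8.

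Type VI collagen forms beaded filaments around cells from Col6a1, Col6a2 and 1 further chain. Col6a1 was at 0 in naive cells, 14.0 and 115 CPM in primed Oct4GIP and 129/MSM, 108 to 174 CPM at d8, and 270, 1352, 531 and 675 CPM at d16 in Basal medium, 2iL, AICAR and AICAR+LIF. It was at 2.64 CPM or less in reverted cells. Col6a2 was at 4.05 and 93.5 CPM in primed cells, 87.9 to 148 CPM at d8 and 195 to 1165 CPM at d16, and Col6a1 stood at 1.30 to 1.88 times Col6a2 per kilobase in 9 libraries. Col6a3, the usual partner of both, had no count in naive cells or primed Oct4GIP and 536 counts (169 CPM) in primed 129/MSM, and it lay at 109 to 171 CPM at d8 and 130 to 925 CPM at d16. In the 11 reverted libraries it had 3 counts in all.

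Col6a5 (ENSMUSG00000091345, chr9:105856078-105960643, minus strand), which can take the place of Col6a3, had a pattern that none of these shared. It was at 0.621 CPM in naive cells, 0.736 and 0.316 CPM in primed Oct4GIP and 129/MSM, and at 0 in all 4 libraries of d8. On d16 it was at 1.13 CPM in Basal medium, 286 CPM in 2iL, 4.99 CPM in AICAR and 7.90 CPM in AICAR+LIF. Early reverted cells had 24.6 and 26.2 CPM at 2 passages and 26.9 and 10.2 CPM at 3 passages, and cells at 10 passages 0.408 to 4.77 CPM. The libraries of 2 or 3 passages thus lay above all those of 10 passages, of primed cells and of d8. Its log2 level had a Pearson r of 0.08 with Col1a1 over the 22 libraries. Col6a4 was also higher in early reverted cells, at 1.76 to 5.92 CPM against 0 to 1.19 CPM at 10 passages, from 20 counts or fewer per library.

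Among the FACIT chains, which decorate fibrils, Col12a1 was at 0 in naive cells, 2.21 and 25.6 CPM in primed Oct4GIP and 129/MSM, 397 to 555 CPM at d8, 565 to 1280 CPM at d16, and 4.14 and 4.94 CPM at 2 passages. At 10 passages it had no more than 1 count in any library. Col14a1 was at 5.39 CPM or less at d8 and at 16.6, 201, 187 and 86.6 CPM at d16 in Basal medium, 2iL, AICAR and AICAR+LIF. Col9a2 lay at 1.51 to 18.2 CPM over all 22 libraries. Col8a1, a short chain of endothelial and corneal networks, was at 13.2 and 11.4 CPM in the primed libraries, 93.3 to 212 CPM at d8 and 190 to 1069 CPM at d16, with 2 counts in all at 10 passages. Col7a1, the chain of anchoring fibrils under epithelia, was at 18.4 and 65.4 CPM in the primed libraries and reached 193 and 299 CPM in AICAR and AICAR+LIF on d8, against 72.8 CPM in Basal medium and 20.7 CPM in 2iL. Epithelial markers ran with it on d8, with summed levels of 647 and 1149 CPM in AICAR and AICAR+LIF against 70.9 and 35.3 CPM in Basal medium and 2iL, and their part was not tested. Col26a1 ran the other way, at 2.07 CPM or less in the 2 primed and 4 d8 libraries and at 3.39 to 10.2 CPM at 10 passages.

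**Figure D3:**
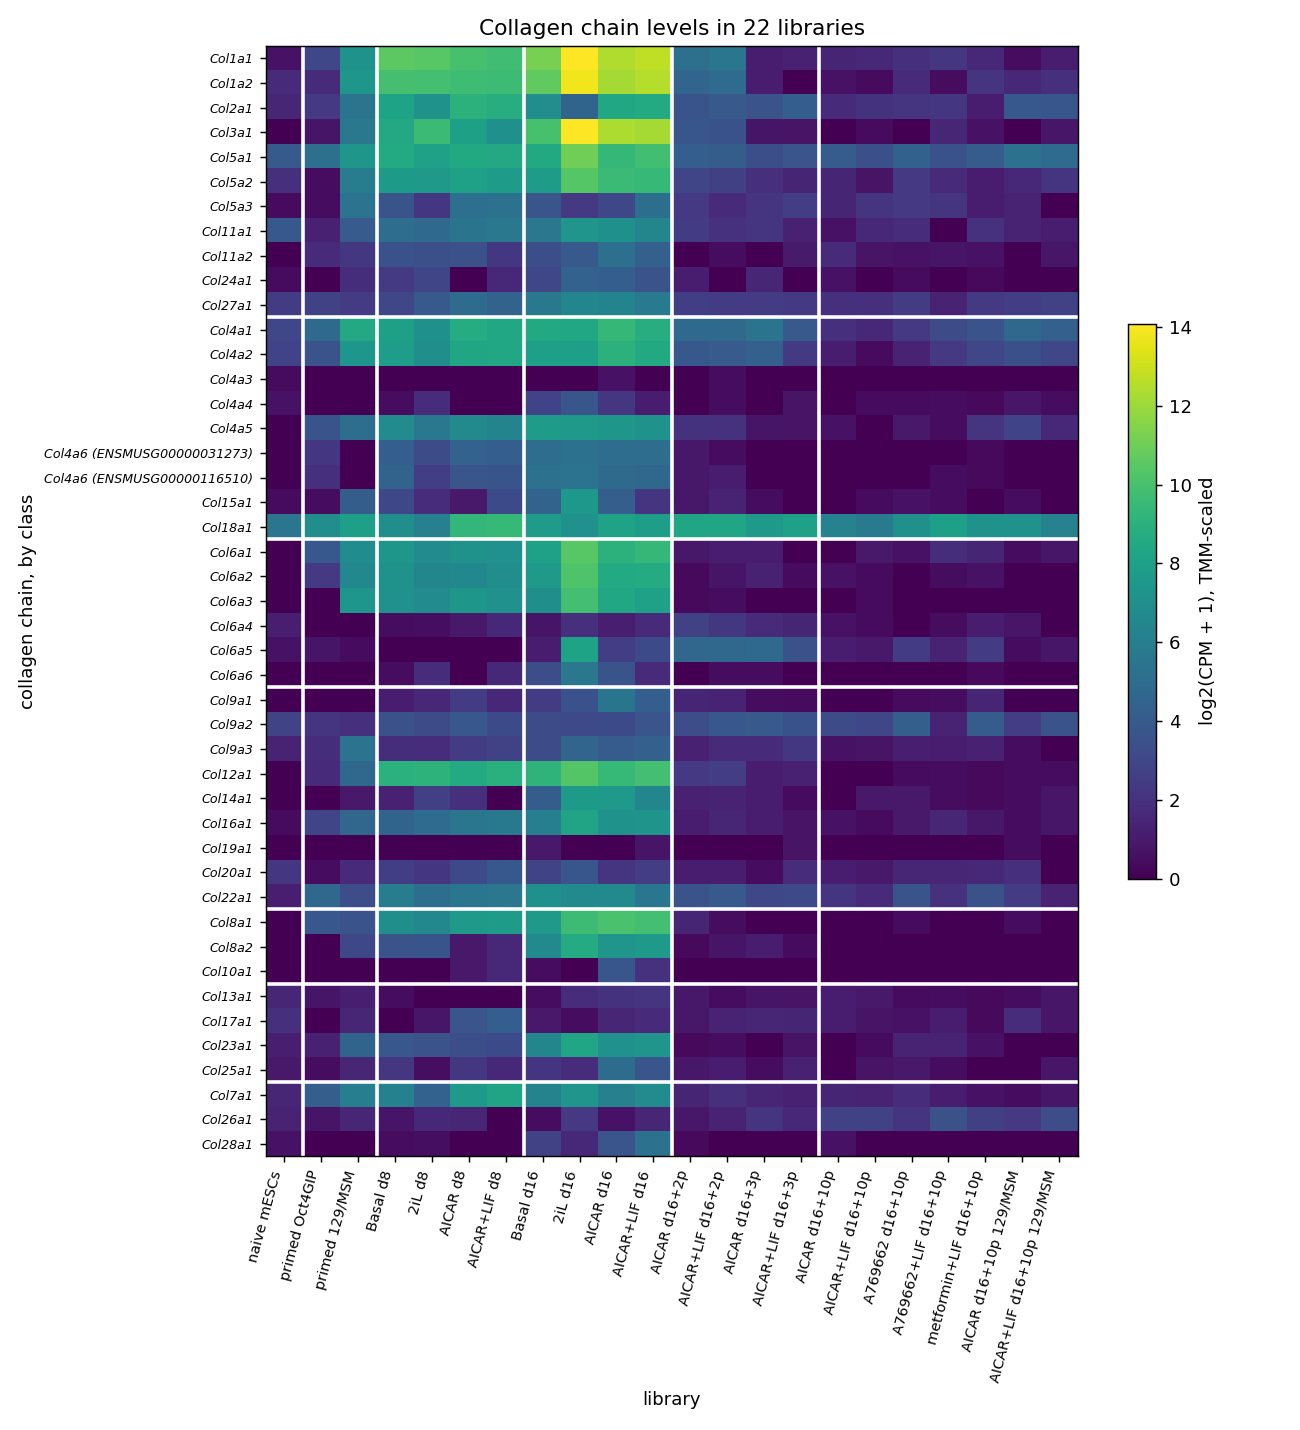
Level of each of the 45 rows in each of the 22 libraries, as log2 of CPM plus 1, with white lines between classes and between groups. The colour steps up from primed to d8 and d16 in most rows and down again at 2 passages, while the Col18a1 row stays bright throughout.

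The question of the first comparison was what distinguishes reverted cells of 10 passages from the primed cells they came from. Most collagen chains were lower after reversion. Of 42 members tested, 25 fell and 2 rose, against a background of 36.6% of all 18739 genes called, 16.7% higher and 19.9% lower (edgeR quasi-likelihood test with Benjamini-Hochberg adjustment at a threshold of 0.05). The median log2 change of the members was −2.94 (−2.57 with Col8a2, at 0 in all 7 libraries, set to its bound) and that of all genes −0.01. By class, 8 of 11 fibrillar chains, 6 of 8 basement membrane rows, 3 of 6 beaded filament chains and 4 of 8 FACIT chains fell. Groups did not overlap for 12 members, 11 lower and 1 higher, against 19.1% of all genes lower and 19.5% higher.

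Type VI chains had some of the largest folds. Col6a2 fell by 7.32 ± 0.88 (log2 ± SE, edgeR adjusted p = 1.97e-06) and Col6a1 by 5.83 ± 0.63 (edgeR adjusted p = 4.81e-07), both without overlap. Col6a3 was 1734 times lower (95% exact counting interval 309.8 to 68603), from 1 count against 536, but all 536 came from primed 129/MSM. Col8a1 was 116 times lower (interval 31.1 to 980). Col8a2 was at least 2.06-fold lower than the primed mean, with 7.26 CPM in primed 129/MSM and no count in primed Oct4GIP. Col12a1 fell by 5.53 ± 0.71, Col1a1 by 5.17 ± 0.93 and Col4a1 by 4.24 ± 0.63 on the same scale, with edgeR adjusted p-values of 4.62e-06, 0.000176 and 2.58e-05. The 2 that rose were Col26a1, by 2.17 ± 0.76 (edgeR adjusted p = 0.0294), and Col9a2, by 1.66 ± 0.59 (edgeR adjusted p = 0.0333). Col18a1 was not called (−0.56 ± 0.59, edgeR adjusted p = 0.496).

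Much of this difference rested on the primed 129/MSM library. Without it 10 members fell and none rose: Col4a5, both rows of Col4a6, Col6a1, Col6a2, Col12a1, Col16a1, Col22a1, Col8a1 and Col7a1, so that no fibrillar chain was called. Within Oct4GIP and naive libraries alone the count was 11, the same chains and Col4a1. The estimates of Col5a2, Col5a3 and Col11a1 then turned from lower to higher than in primed cells, though Col5a2 and Col5a3 had only 1 count each in primed Oct4GIP, and Col11a1 4. Markers of other cell types were also lower at 10 passages, with 9 of 13 fibroblast and feeder markers, 5 of 7 endoderm markers (Sox17, Foxa2 and Gata6 with the smallest p) and 5 of 6 epithelial markers (led by Krt19, Krt8 and Krt18) lower and none higher. These marker lists were compared only with primed 129/MSM included, and their part in the result was not tested.

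**Figure D4:**
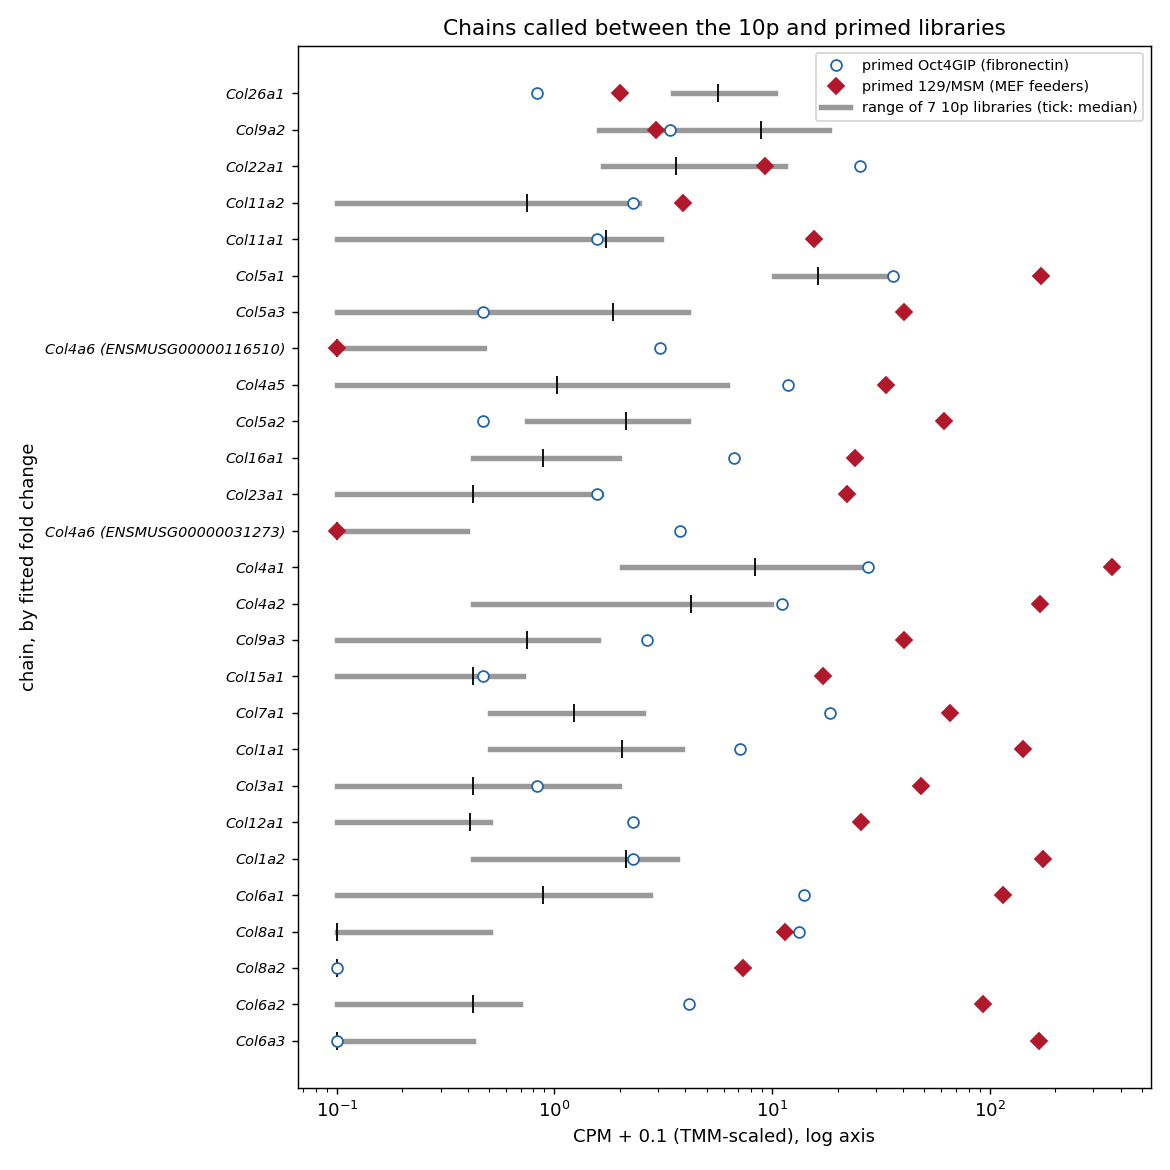
Level of the 27 rows called between cells of 10 passages and primed cells, as CPM plus 0.1 on a log axis, with grey bars for the range of the 7 libraries of 10 passages, a tick at their median, open circles for primed Oct4GIP and diamonds for primed 129/MSM. For the fibrillar chains the diamond stands far to the right while the open circle is near or inside the grey bar, and for Col6a1, Col6a2, Col12a1 and Col8a1 both primed symbols are to its right.

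Genes that make and modify collagen fell as well. In the 18 genes of chain hydroxylation and folding, 10 fell and 3 rose. The prolyl hydroxylase P4ha2 fell by 3.46 ± 0.21 on the log2 scale, the chaperone Fkbp10 by 5.08 ± 0.39 and the lysyl hydroxylase Plod2 by 5.05 ± 0.45. For propeptide cleavage and crosslinking, 9 of 13 fell and 2 rose, led by Loxl2, Pxdn (which crosslinks type IV) and Bmp1, which fell by 4.14 ± 0.33, 5.56 ± 0.49 and 5.02 ± 0.58. The 13 genes summed to 235 CPM in primed Oct4GIP and 739 CPM in primed 129/MSM, against 129 to 199 CPM at 10 passages. Lox, among the 9, had no count in primed Oct4GIP. Of 9 collagen receptors 6 fell (Ddr1, Mrc2 and Itga1 with the smallest p). The list of collagen degradation genes holds proteases and also the protease inhibitors Timp1, Timp2 and Timp3, so its counts do not give a direction of degradation. Of its 10 genes 5 fell (the inhibitors Timp3 and Timp2, and Mmp14, with the smallest p). The basement membrane partners did not share this course, with 3 of 12 higher and 1 lower: the laminin chain Lama4 fell by 4.18 ± 0.63, while the nidogens Nid1 and Nid2 rose by 2.39 ± 0.47 and 1.87 ± 0.44.

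The next comparison asked how the cultures of d8 and d16 differed from primed cells. Of 42 members 28 rose and Col9a3 alone fell, against 37.5% of all genes called (18.1% higher, 19.4% lower), with a median log2 change of 2.45 (2.31 with the 6 chains that are at 0 in both primed libraries set to their bounds) against 0.04 for all genes. Fibrillar chains rose in 9 of 11 cases, FACIT chains in 7 of 8, beaded filament chains in 4 of 6 and basement membrane rows in 4 of 8. The type IV rows that rose were Col4a4, Col4a5 and both of Col4a6, while Col4a1, Col4a2, Col15a1 and Col18a1 did not pass the test. The cultures, all of Oct4GIP, lay above primed Oct4GIP for Col4a1 (135 to 667 against 27.6 CPM) and Col4a2 (130 to 525 against 11.03 CPM). Primed 129/MSM, at 364 and 171 CPM, lay within the range of the cultures. For Col18a1 the cultures (70.1 to 684 CPM) lay on both sides of primed Oct4GIP (123 CPM). Groups did not overlap for 18 members, all higher, against 11.9% of all genes higher and 12.3% lower.

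Col3a1 rose by 6.05 ± 1.28 (edgeR adjusted p = 0.00108), Col12a1 by 5.52 ± 0.61 (1.78e-06) and Col1a1 by 5.35 ± 1.19 (0.00155), all without overlap. Col14a1 was 138 times higher, with a 95% exact counting interval of 47.3 to 672, from 3 primed counts. This pooled ratio came mostly from d16, with 88 to 599 counts per library against 0 to 13 at d8. Among chains with no primed count, the mean over the cultures was at least 9.74-fold higher for Col9a1, 8.51-fold for Col6a6 and 6.56-fold for Col28a1. The d16 libraries carried these means. The d8 libraries had 1 to 5 counts of Col9a1, 0 to 6 of Col6a6 and 0 to 1 of Col28a1, so the bounds do not hold for d8 alone. Col9a3, a chain of cartilage type IX, had 40.1 CPM in primed 129/MSM, above every culture, and fell by 1.49 ± 0.58 (edgeR adjusted p = 0.0483). Without primed 129/MSM its estimate was 1.50 higher in the cultures, and with DESeq2 size factors in edgeR it was not called. Without primed Oct4GIP the count fell from 29 to 16. The fibroblast and feeder list had 8 of 13 markers higher in the cultures and none lower, with 13 of 14 markers above 3 counts in some library of each day. Neural markers were higher in 4 of 5 cases (median log2 change 4.72) and cartilage markers were higher in 3 of 5 and lower in 1, while epithelial markers were lower in 4 of 6 and endoderm markers lower in 4 and higher in 3 of 7. These lists were compared only with primed 129/MSM included, where endoderm markers summed to 400 CPM against 19.5 CPM in primed Oct4GIP. In the cultures endoderm markers summed to 15.6 to 65.3 CPM at d8 and 165 to 4199 CPM at d16. The part of these cell types in the collagen result was not tested. Since the cultures hold MEF feeders, feeder and mEpiSC-derived collagen cannot be told apart in these libraries.

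Among the other genes of the pathway, 10 of 18 for hydroxylation and folding rose and 1 fell, the fall being Plod2 by 2.66 ± 0.43 on the log2 scale and the rises led by P3h3 and Plod1 at 1.75 ± 0.30 and 1.53 ± 0.37. For cleavage and crosslinking 5 of 13 rose, with the procollagen cleavage enhancer Pcolce at 3.30 ± 0.68, followed by Bmp1 and Adamts2. Receptors rose in 7 of 9 cases (Ddr1, Mrc2 and Adgrg1). Degradation genes rose in 6 of 10 cases, among them the inhibitors Timp2 and Timp3, and fell in 1, with the collagen-cleaving protease Ctsk at 5.06 ± 0.95. Basement membrane partners rose in 5 of 12 and fell in 2, where Lama5 fell by 3.07 ± 0.48 and Nid1 and Lama4 rose by 2.38 ± 0.46 and 2.54 ± 0.55.

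Between d8 and d16 most collagen chains rose. Of 39 members tested in the 8 cultures, with AICAR as a covariate, 26 rose and none fell, against 30.2% of all 15473 genes called (17.5% higher, 12.7% lower) and with a median log2 change of 1.81 against 0.00. Fibrillar chains rose in 8 of 11 cases and basement membrane rows in 5 of 8, namely Col4a4, Col4a5, both rows of Col4a6 and Col15a1. Of the other classes 3 of 5 beaded filament, 6 of 8 FACIT, 2 of 2 short-chain, 1 of 3 transmembrane and 1 of 2 anchoring or other chains rose. Groups did not overlap for 18 members, all higher, against 14.1% of all genes higher and 10.3% lower. Col14a1 rose by 5.35 ± 0.94 (edgeR adjusted p = 0.00547), Col8a2 by 5.02 ± 0.57 (0.00147), Col3a1 by 4.35 ± 0.78 (0.00614), Col23a1 by 4.06 ± 0.42 (0.00104), Col1a2 by 2.86 ± 0.56 (0.00831) and Col1a1 by 2.74 ± 0.52 (0.00711). These 6 had no overlap between the days.

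Col28a1 was 42.6 times higher at d16 (95% exact counting interval 11.6 to 355, from 2 counts at d8). Col6a5, at 0 in every d8 library, was at least 12.7-fold higher, but the 286 CPM of 2iL d16 carried most of its mean and it was not called (edgeR adjusted p = 0.0579). Col4a1 (0.70 ± 0.24, adjusted p = 0.0563), Col4a2 (0.42 ± 0.21, 0.155), Col18a1 (−0.28 ± 0.47, 0.688) and Col2a1 (−1.01 ± 0.47, 0.134) were not called by edgeR. With both shallow libraries, AICAR d8 and AICAR+LIF d8, left out, 11 members rose and none fell. The fibroblast and feeder markers rose in 9 of 13 cases, from sums of 635 to 1738 CPM at d8 to 1088 to 3436 CPM at d16, and endoderm markers reached 4199 CPM in Basal d16, of which the liver and yolk sac gene Ttr made up 4059 CPM. Of the tested markers, 3 of 5 for endoderm were higher at d16 and 3 of 5 neural markers were lower. The part of these cells in the collagen levels was not tested.

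The machinery rose with the chains. In hydroxylation and folding 14 of 18 genes rose and none fell, with P4ha2 at 2.35 ± 0.19, P3h3 at 1.77 ± 0.25 and P4ha1 at 1.55 ± 0.18 on the log2 scale. Cleavage and crosslinking genes rose in 5 of 13 cases, led by Adamts2, Loxl1 and Pcolce, and fell in 1, Lox. Receptors rose in 5 of 9 cases (Itga1, Mrc2 and Itga2) and degradation genes in 5 of 9 (the inhibitor Timp2, and Fap and Mmp2). Basement membrane partners rose in 6 of 12, among them Lamc1, Nid1 and Nid2 at 1.43 ± 0.20, 2.14 ± 0.30 and 3.38 ± 0.57.

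Few chains were called when 4 cultures with AICAR or AICAR+LIF were set against 4 without it, in a fit that also held the day. Of 39 members 1 rose and none fell, against 8.90% of all genes called (3.39% higher, 5.51% lower). The median log2 change was 0.13 against −0.03 for all genes. An unadjusted p under 0.05 in edgeR was found for 12 of the 39, among them 5 of 8 basement membrane rows. The called chain was Col4a2, higher by 0.90 ± 0.21 (edgeR adjusted p = 0.0357). It had 322 to 525 CPM in all 4 AICAR libraries and 130 to 249 CPM in the others. It passed the threshold in 2 of the 8 fits that left out a library and in 7 of 10 other fits, with adjusted p-values of 0.000351 to 0.229 over all of them. Its neighbour Col4a1 (0.82 ± 0.24, edgeR adjusted p = 0.0669) was not called.

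Besides Col4a2, 3 chains had no overlap between the arms, and all 4 were higher with AICAR, against 4.19% of all genes higher without overlap and 6.81% lower. They were Col18a1 (1.71 ± 0.48, edgeR adjusted p = 0.0579), Col2a1 (1.78 ± 0.48, 0.0529) and Col17a1 (3.17 ± 0.85, 0.0524), a hemidesmosome chain with 12.3 and 17.8 CPM in the AICAR libraries of d8 and 2.26 CPM or less in the other 6 cultures. For Col18a1 the ratio of AICAR to Basal medium was 5.08 on d8 and 1.38 on d16, and AICAR+LIF stood at 1.06 and 0.821 times AICAR. For Col1a1 the same ratio was 0.688 on d8 and 2.34 on d16, and 2iL stood at 0.946 and 7.29 times Basal medium. The difference of the AICAR effect between the days passed the threshold for none of the 39 members (5 had an unadjusted p under 0.05 in edgeR), Col18a1 included (edgeR adjusted p = 0.0968). Epithelial markers were also uneven, at 647 and 1149 CPM in the AICAR libraries of d8 and 35.3 to 398 CPM in the other 6 cultures, and muscle markers were at 48.6 to 235 CPM with AICAR and 4.34 to 26.9 CPM without. The part of these cells in the levels of Col18a1 and Col17a1 was not tested. The fibrillar median was 0.13 and the basement membrane median 0.09 on the log2 scale, each over tested members. Count and direction shifted with the libraries used: without 2iL d16 9 members were higher with AICAR, without Basal d16 2 were higher and 3 lower, and without AICAR d8 or without AICAR+LIF d8, the 2 shallowest libraries, edgeR called none (12 had an unadjusted p under 0.05 in either case), while DESeq2 called 7 and limma voom 5 with all 8 libraries.

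The other genes of the pathway were called in both directions, against the same 8.90% of all genes. The prolyl 3-hydroxylase P3h2 rose by 3.30 ± 0.36 and P4ha1 fell by 1.12 ± 0.18, out of 18. Loxl1 and Tll1 rose by 2.15 ± 0.37 and 1.80 ± 0.35, out of 13. Of 9 receptors Itgb1 rose and Ddr1 and Adgrg1 fell, of 12 basement membrane partners Lamc1 rose and Agrn fell, and of 9 degradation genes none passed the test (2 had an unadjusted p under 0.05). The fibroblast and feeder list had Postn and Pdgfrb higher, by 1.80 ± 0.27 and 0.84 ± 0.20, and Dpt lower, by 4.23 ± 0.80, and the part of feeder number in these differences was not tested.

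**Figure D5:**
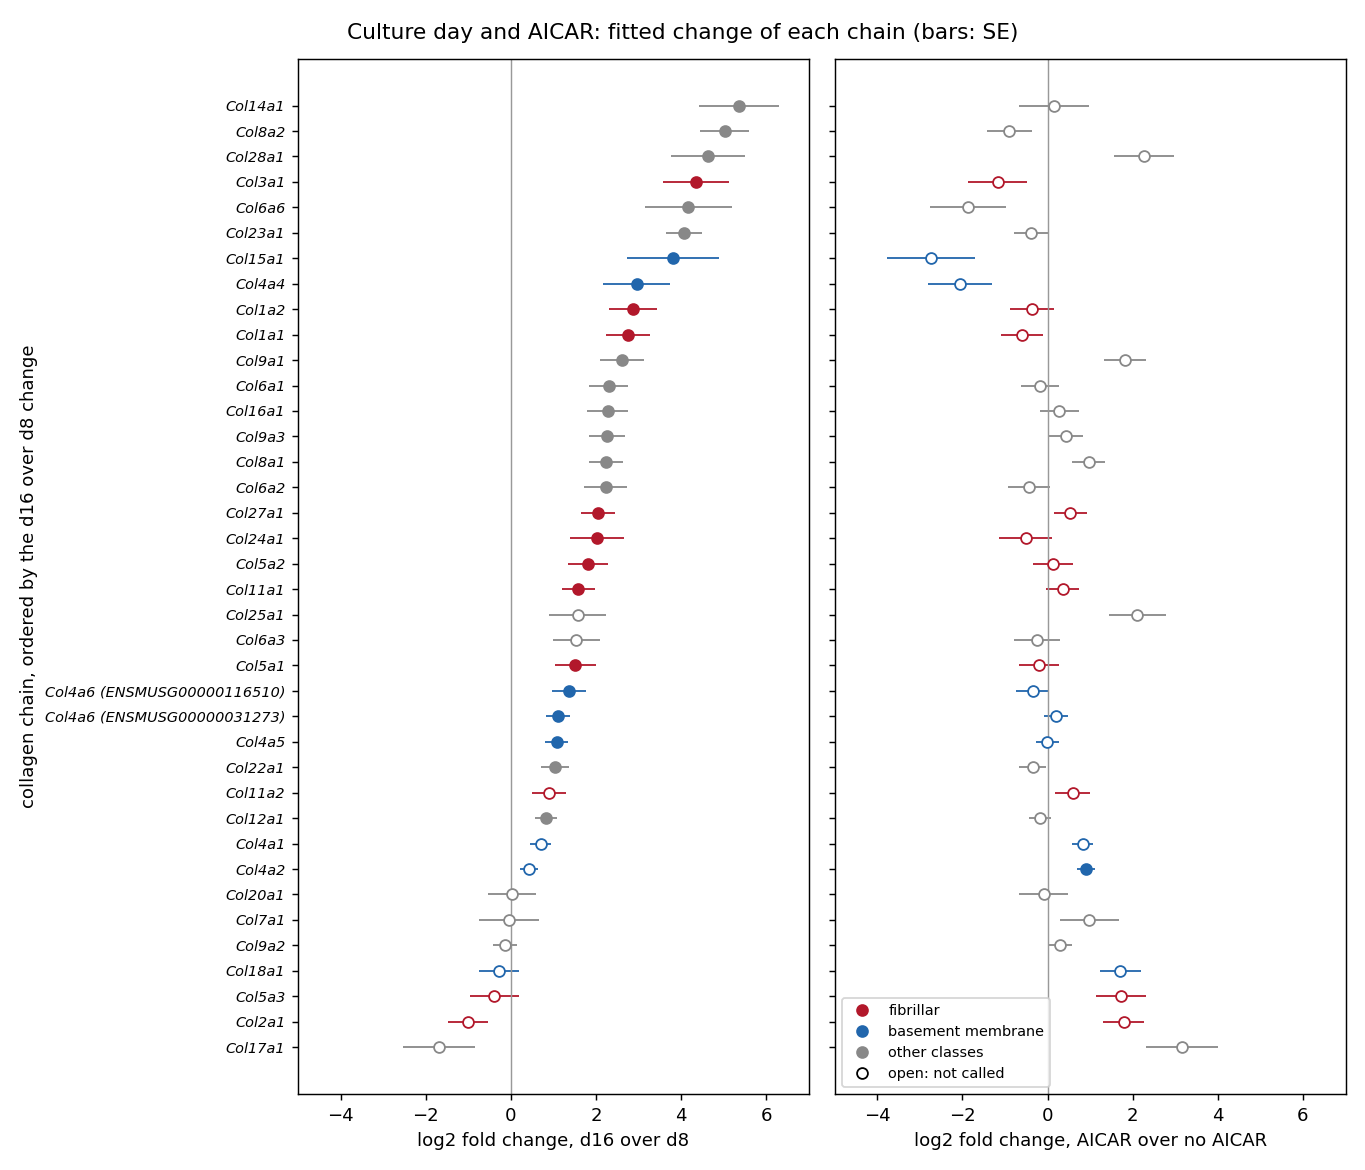
Fitted log2 fold change of 38 rows between d16 and d8 (left) and between cultures with and without AICAR (right), with bars for the SE, filled symbols for rows called at an adjusted p of 0.05, and the class in colour. Col6a5 is left out because all d8 libraries were at 0, and Col28a1 rests on 2 counts at d8. On the left 26 symbols are filled and lie to the right of 0, and on the right Col4a2 is the filled symbol.

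After passage on gelatin in 2iL most collagen chains were far lower. Between d16 and the 4 libraries of 2 or 3 passages, 35 of 42 members fell and none rose, against 71.1% of all genes called (33.2% higher, 37.9% lower), with a median log2 change of −5.81 (−5.69 with Col10a1 at its bound) against −0.15. The d16 libraries of Basal medium and 2iL have no passaged library among the 22, and the d16 cultures were on feeders while passaged cells were on gelatin, so passage, medium, substrate and cell makeup cannot be told apart. Fibrillar chains fell in 10 of 11 cases and basement membrane rows in 7 of 8. Groups did not overlap for 34 members, all lower, against 34.1% of all genes lower and 32.3% higher. Col8a1 fell by 10.19 ± 0.66, Col3a1 fell by 10.14 ± 1.15 and Col6a1 fell by 9.75 ± 0.76 (edgeR adjusted p = 9.43e-11, 1.63e-07 and 1.12e-09), and Col6a3 was 2024 times lower (95% exact counting interval 559.9 to 16714).

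The 7 that were not called were Col5a3, Col6a4, Col6a5, Col9a2, Col17a1, Col18a1 and Col26a1. Of these, Col18a1 had 194 to 315 CPM after passage and 137 to 288 CPM at d16 (0.32 ± 0.54, edgeR adjusted p = 0.601), so that the type XVIII chain did not pass the test in a comparison where Col4a1 and Col4a2 fell by 4.03 ± 0.68 and 4.71 ± 0.69. The machinery fell too, in 16 of 18 genes of hydroxylation and folding (P4ha2 by 3.63 ± 0.22, P3h3 by 4.35 ± 0.28 and Fkbp10 by 5.73 ± 0.39). In cleavage and crosslinking 11 of 13 fell, such as Adamts2, Bmp1 and Loxl2, and 1 rose. All 9 receptors fell (such as Ddr1, Mrc2 and Itga2), as did all 10 degradation genes (such as Mmp2 and the inhibitors Timp2 and Timp3). Of the basement membrane partners 7 of 12 fell and 1 rose, where Lama4 fell by 6.76 ± 0.58, Sparc fell by 3.42 ± 0.39 and Nid1 fell by 3.25 ± 0.38. All 13 fibroblast and feeder markers tested fell. After passage, their sum was 24.7 to 44.4 CPM and Twist2 had no count in any of the 4 libraries.

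Between 2 or 3 passages and 10 passages few chains changed, all from low levels. Of 42 members 3 fell and none rose, against 9.35% of all genes called (4.75% higher, 4.61% lower), and the median log2 change was −1.11, against no shift over all genes. Groups did not overlap for 5 members, 4 lower and 1 higher, against 6.27% of all genes lower and 5.97% higher. Col6a4 fell by 2.75 ± 0.61 (edgeR adjusted p = 0.00745), Col12a1 fell by 3.26 ± 0.82 (0.0151) and Col1a1 fell by 3.34 ± 0.89 (0.0205). For Col1a1 and Col12a1 the early level came from the libraries of 2 passages, since with those of 3 passages alone edgeR called none of the members (2 had an unadjusted p under 0.05) and the Col1a1 estimate was 0.68 higher at 10 passages. Without AICAR at 2 passages none was called (9 had an unadjusted p under 0.05), and without AICAR+LIF at 2 passages 1. Col6a5, whose groups did not overlap, missed the threshold (edgeR adjusted p = 0.0553), as did Col26a1, higher by 1.66 at 10 passages (0.0591). In the other lists Nid1 and Lamb2 rose by 2.24 ± 0.34 and 1.05 ± 0.28, the collagen chaperone Serpinh1 rose by 1.02 ± 0.30 while Fkbp10 fell by 1.54 ± 0.44, Loxl2 and Pxdn fell, and of the receptors Itga1 fell and Adgrg1 rose. None of 10 degradation genes and none of 13 fibroblast markers passed the test, with 1 of each at an unadjusted p under 0.05.

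The 129/MSM line was set against Oct4GIP within the 2 primed and 7 libraries of 10 passages, with the state as a covariate. Of 29 members tested 4 rose in 129/MSM and none fell, against 4.86% of all 15930 genes called (2.82% higher, 2.04% lower), with a median log2 change of 1.35 against −0.01. Col2a1 was higher by 2.51 ± 0.35 (edgeR adjusted p = 0.00289), without overlap (3.49% of all genes were higher and 2.47% lower in that way), Col4a1 by 2.51 ± 0.47 (0.0121) and Col5a1 by 1.48 ± 0.26 (0.01). These 3 were also called within the libraries of 10 passages alone, at 2.24, 1.93 and 1.20. Col6a3 was called (edgeR adjusted p = 0.0034) on the 536 counts of the primed library, and without primed Oct4GIP its estimate turned to −1.36. The primed libraries of the lines were also grown on different substrates, which cannot be told apart from the line in that state. At 10 passages 129/MSM came only after AICAR or AICAR+LIF, while Oct4GIP also came after A769662, A769662+LIF or metformin+LIF. Line and activator are thus partly confounded there. The study lists Oct4GIP as XX and 129/MSM as XY, so sex cannot be told apart from the line in either state. Of the other lists, the laminin chains Lamb1 and Lamb2 rose, Lox, Loxl3 and Pxdn were higher, as were Mia3 and the collagen-binding integrin Itga11, and none of 7 degradation genes passed the test (3 had an unadjusted p under 0.05). Lox had no count in any of the 7 libraries of 10 passages, so that its call, like that of Col6a3, rests on the primed pair (39.8 CPM in 129/MSM, 0 in Oct4GIP). None of 11 fibroblast and feeder markers passed the test, 6 had an unadjusted p under 0.05, and their median log2 change was 3.92, with estimates for Lum, Postn and Dcn of 5.08 ± 1.13, 4.55 ± 1.18 and 3.99 ± 1.17 (edgeR adjusted p = 0.0624, 0.0525 and 0.0771). Their sum was 588 against 89.7 CPM in the primed libraries, and 34.3 and 26.3 CPM in 129/MSM at 10 passages, and their part in the collagen difference was not tested.

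The non-collagen genes whose log2 levels over the 22 libraries were most like that of Col1a1, among 10863 genes with enough reads, were Fjx1, Thbs2, Ptpn11, Bmp1 and Igfbp5, with Pearson r of 0.961, 0.961, 0.960, 0.960 and 0.959. Those most like Col4a1 were Usp25, Lats2, Sh3kbp1, Pxdn and Arhgef40, with r of 0.967, 0.966, 0.962, 0.955 and 0.948. Of the members, Col3a1, Col12a1 and Col1a2 had r of 0.98, 0.97 and 0.97 with Col1a1, while Col18a1 had 0.41, Col9a2 0.08 and Col26a1 −0.54. These values describe points that share culture groups.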

How the data were processed

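Poly(A) RNA of 22 libraries was sequenced. Per the study's methods and the submitters' processing notes, the authors aligned the reads with Bowtie2 2.2.5 to GRCm38 transcripts and deposited a table of counts per gene, not normalized, which was used as deposited. A transcript-level count table and a summary of detected genes were not used. The members and all gene lists were chosen with earlier results of these data known. Genes were tested with edgeR 4.0.16 (R 4.3.3; TMM factors, filterByExpr, quasi-likelihood test, Benjamini-Hochberg adjustment over all genes tested, threshold 0.05), in a fit of 6 groups, in a fit of the 8 cultures on day and AICAR, and in a fit of the 2 primed and 7 libraries of 10 passages on state and line. Folds are log2 with SE. Alternatives used DESeq2 1.42.0, limma voom 3.58.1, other scalings and filters, thinning to the smallest total and leaving out each library. Chains at 0 in a whole group got a bound from a floor of 3 counts, and chains with 1 to 3 counts a ratio with an exact 95% counting interval, and intervals and floors cover counting error only. Depth ran from 438771 to 5290163 counts. Col4a3, Col13a1 and Col19a1 did not pass the filter in the fit of 6 groups, and Col6a4, Col10a1 and Col26a1 also not in the fit of the cultures. Values are given for chains of types I to VI, XI, XII, XV and XVIII, with up to 4 called chains of largest fold per direction and comparison, and up to 3 genes with the smallest adjusted p per other list, and with the 5 other genes most like Col1a1 and Col4a1 in Pearson r among genes with a mean log2 CPM of at least 3. Scripts were tested on simulated data.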

Additional observations from a re-analysis of the deposited data

Results flagged for a closer look

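The level of Col15a1 in the 2iL culture of d16, 178 CPM, stood far from the other 3 libraries of that day, which lay between 3.39 and 21.7 CPM. Its gap to the nearest library was 0.896 of the range of the group, above the critical value for groups of 4. In all, 47 groups of values over 16 chains were looked at in this way, and chance alone flags about 1 in 20. The same culture had the highest level of Col1a1, Col1a2, Col3a1 and Col6a5 among the 4 libraries of d16.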

How the results depend on the processing

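No condition has a replicate library and the 2 shallowest libraries are both AICAR cultures of d8, which limits what can be said of AICAR. The labels give no replicate numbers, but the same 4 treatments stand at d8 and d16, and a fit paired by treatment is given for the days. Between 10 passages and primed cells, 27 members were called, against 14 with limma voom, 17 after thinning, 1 with at least 10 counts in every library, 13 with only the compared groups, 11 with Oct4GIP and naive libraries alone and 10 to 28 leaving out a library. Between 10 passages and 2 or 3 passages, 3 were called, against 6 with DESeq2, 5 without a filter, 5 with Oct4GIP and naive libraries alone, 0 with at least 10 counts (1 at an unadjusted p under 0.05), 0 after thinning (6 unadjusted), 0 with 3 passages alone, a choice made after seeing the data, and 0 to 4 leaving out a library. With at least 10 counts in every library, 1 instead of 35 was called between 2 or 3 passages and d16, and 1 instead of 29 between cultures and primed cells, since few chains pass that filter. Leaving out a library gave 35 to 37 and 16 to 30 there. For AICAR, 1 was called, against 7 with DESeq2, 5 with limma voom, 5 without TMM, 19 without a filter (12 higher, 7 lower), 3 after thinning, 0 without the day (6 unadjusted), 0 to 9 leaving out a library and, chosen after seeing the data, 0 at d16 alone (7 unadjusted) and 6 without 2iL. For d16 over d8, 26 were called, against 16 with at least 10 counts and 17 after thinning. Without the shallow libraries and without a term for AICAR, a choice made after seeing the data, 11 were called. The fit paired by treatment (treatment as a block) gave 25, and leaving out a library gave 18 to 27. For the line, 4 were called, against 10 with limma voom, 1 with at least 10 counts and 2 to 6 leaving out a library. Reversals without primed 129/MSM, and with Oct4GIP and naive libraries alone, were Col5a2 (2.44 and 2.27), Col5a3 (2.48 and 2.77), Col11a1 (0.15 and 0.20) and Col6a3 (1.10 and 1.34, fitted from 1 count) at 10 passages, and Col9a3 (1.50 and 1.56) in the cultures. Without primed Oct4GIP the rows of Col4a6 turned to 1.10 and 1.72 at 10 passages and Col6a3 to −1.36 between lines, and with 3 passages alone Col1a1 turned to 0.68. In the other fits that left out a library, the lowest values at 10 passages were −4.77 (Col5a2), −4.12 (Col5a3), −3.20 (Col11a1), −10.85 (Col6a3), −5.30 and −4.32 (Col4a6), Col1a1 lay at −3.73 to −2.69, Col9a3 fell to −2.40 and Col6a3 between lines reached 9.42. The cause of these changes was not tested. Over 125 results for single chains and 2130 alternatives, 1899 kept direction and call, 217 lost the call and 14 reversed. Without TMM factors the median log2 change of all genes was −0.11 between 10 passages and primed cells and −0.11 between d16 and d8.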
